A study of Drosophila melanogaster with 84 samples.

Results

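The wells described here each held 1 sorted neuron rich in the mRNA of CCHa1, the gene of the neuropeptide CCHamide-1, and are called CCHa1 wells. They were picked by a rule on the well itself: 1000 to 6000 genes detected, 6000 to 75000 UMIs (molecules counted once each by their unique molecular identifier), an entropy of at least 5.5 over genes, at least 10 UMIs of CCHa1 per 10000 UMIs of the well (TP10K), and less than 150 TP10K of Pdf, 150 TP10K of ITP and 40 TP10K of Trissin. Of 8060 wells, 4595 passed the limits on genes, UMIs and entropy, and 203 of these were CCHa1 wells. The other 4392 kept wells served as the comparison. The values of CCHa1, Pdf, ITP and Trissin chose the wells, so these genes are described below and not tested.

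In the Drosophila brain clock, CLOCK and CYCLE switch on period, timeless, vrille and Pdp1, PERIOD and TIMELESS then hold back CLOCK and CYCLE, and VRILLE and PDP1 act on Clk itself. The loop runs in a network of lateral and dorsal neurons that signal to each other with peptides and small transmitters. The anterior dorsal neurons of group 1 (DN1a) are a small part of that network, are glutamatergic, persist from the larva to the adult and are known for making CCHamide-1, through which they signal to other clock neurons.

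The neurons came from dissociated brains of adult flies in which Clk856-Gal4 drove EGFP, and were sorted by fluorescence, 1 per well, for CEL-Seq2, a method that counts the 3′ ends of mRNAs. The driver labels most clock neurons, part of the DN3 group and a few cells outside the clock. Brains were taken at 2, 6, 10, 14, 18 and 22 h, either on day 3 of constant darkness (DD, 48 libraries, circadian time, CT) after rearing in 12 h light and 12 h dark, or in that light cycle (LD, 36 libraries, Zeitgeber time, ZT). Both groups carried the same driver and received no treatment, and brains were dissected in saline with blockers of neuronal activity.

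Libraries of the same light condition, time point and number in the title were taken as 1 batch, the unit of every test. There were 14 DD and 14 LD batches, written here as CT or ZT with the hour and a letter. At least 3 CCHa1 wells were present in 24 of them (11 DD, 13 LD), which hold 197 CCHa1 wells and 25953 to 565111 summed UMIs of CCHa1 wells each. Nothing in the labels says that batches of a time point came from separate fly cultures, so the p-values measure the spread between batches, which may be technical. The DD and LD batches shared no number in the title, so a difference between the light conditions cannot be told apart from one between sets of batches. CCHa1 wells had a median of 16320 UMIs and 2545 genes, against 16195 UMIs and 2485 genes in other wells.

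The rule cut the kept wells within a thinly filled range of CCHa1 levels, not at a gap. CCHa1 lies on chromosome 3R, 14092504 to 14096835, minus strand (dm6). The CCHa1 wells held 10.5 to 155 TP10K of CCHa1, with a median of 32.5 TP10K and 8 to 301 UMIs of the gene (median 56). The members closest to the limit had 10.5, 10.6 and 11 TP10K, and the wells just below it had 9.45, 9.34 and 9.04 TP10K. Only 11 kept wells lay between 5 and 10 TP10K, while 1244 had a lower level above 0 and 3136 had no CCHa1 UMI. Among the members, 34 lay under 20 TP10K and 3 at 100 TP10K or more. A CCHa1 UMI was seen in 28.6% of the other kept wells, at a mean of 0.284 TP10K (after thinning every well to 6000 UMIs, in 12.8%), which serves as the background level. The limits on Pdf, ITP and Trissin removed 1 well that had enough CCHa1.

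Pdf, ITP and Trissin, peptide genes of lateral clock neurons, still gave UMIs in many CCHa1 wells. A Pdf UMI was present in 90.6% of CCHa1 wells and 94.0% of other wells, an ITP UMI in 81.8% and 77.1%, and a Trissin UMI in 59.1% and 54.3%. The shares in the CCHa1 wells were thus close to those of the whole sort. At least 10 TP10K of Pdf was found in 91 of the 203 CCHa1 wells, and at least 10 TP10K of ITP in 52. Summed per batch, Pdf had 0 to 36.4 TP10K in CCHa1 wells (median 9.31) and 10.3 to 119.9 TP10K in other wells (median 55.7), and ITP had medians of 4.21 and 28.2 TP10K. Both ranges overlapped between the classes. In 85 CCHa1 wells, all 3 genes were under 10 TP10K. Doublets were not called in these sorted plates, and the part of RNA from other neurons in these values was not tested. Where genes were called, the count with only those 85 wells is given too.

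The label DN1a was checked against the markers VGlut, DIP-beta and beat-Va, which the rule did not use but which earlier results of these data had tied to these cells. VGlut, the vesicular glutamate transporter, gave a UMI in 203 of 203 CCHa1 wells, and in 89.3% of other wells. Summed per batch, VGlut had 8.48 to 42.5 TP10K in CCHa1 wells (median 24.9) and 4.0 to 17.2 TP10K in other wells (median 11.2), and was higher in the CCHa1 wells of 24 of 24 batches. DIP-beta, a surface protein of the immunoglobulin superfamily, was found in 89.7% of CCHa1 wells and 38.6% of other wells, with batch medians of 3.15 and 0.603 TP10K. The gene beat-Va, of the Beat family of axon guidance proteins, was found in 86.2% of CCHa1 wells and 42.6% of other wells, with medians of 3.34 and 0.691 TP10K. All 3 markers passed the test described below, with log2 differences of 1.04 ± 0.08 (VGlut), 2.11 ± 0.17 (DIP-beta) and 1.96 ± 0.15 (beat-Va; SE, 24 batches). As earlier results of these data had picked the markers, they are not independent evidence for the label, so the wells are called by their rule. The difference of VGlut from other glutamatergic wells (below) cannot bear on the label, because VGlut itself chose that reference.

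CCHa1 wells had a lower mean share of the kept wells in DD batches than in LD batches. They made up 3.44% ± 1.63 of the kept wells in DD batches and 4.94% ± 1.33 in LD batches (SD, n = 14 each), a difference of -1.5 percentage points (two-sided permutation test with 100000 resamples, p = 0.0123). Batches lay in DD between 0% (CT06b, 0 of 6 kept wells, with an exact 95% interval up to 45.9%) and 6.48% (CT14a), and in LD between 2.52% (ZT10c) and 6.67% (ZT14a), so the ranges overlap widely. With at least 20 TP10K of CCHa1 as the limit, the difference was -0.997 percentage points and missed the threshold (permutation test, p = 0.0909). In these shares, fewer cells with CCHa1 and less CCHa1 RNA per cell cannot be told apart, since the share rests on the CCHa1 limit that chose the wells. Each batch counted equally, whatever its number of kept wells. As DD and LD shared no batch number, the p-value cannot tell light condition apart from sets of batches. Of the 84 libraries, 72 held a CCHa1 well and none more than 9, and the members used 85 of the 96 well barcodes, at most 8 wells sharing a barcode.

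**Figure D1:**
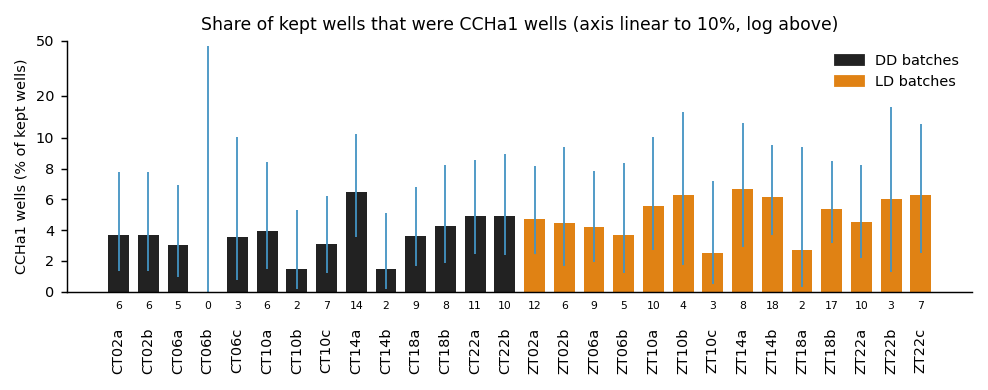
Share of kept wells that were CCHa1 wells, in percent, for each of the 28 batches, DD on the left (black) and LD on the right (orange). Bars start at 0, the axis is linear to 10% and logarithmic above, the blue lines are exact 95% binomial intervals that cover counting error only, and the number of CCHa1 wells stands under each bar. All intervals overlap, the DD mean being 3.44% and the LD mean 4.94%.

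CCHa1 wells were then compared with all other kept wells of the same 24 batches, with UMIs summed per batch and class and batch as a factor in edgeR's quasi-likelihood test. A gene was called at a Benjamini-Hochberg adjusted p under 0.05 and at least a 2-fold difference. Of 7709 genes tested, 166 were higher in CCHa1 wells (2.15%) and 524 lower (6.8%). The counts within gene lists below are to be read beside these shares. The median log2 difference over all genes was -0.29, and library size alone put it at -0.17. With DESeq2, whose scaling put that median at -0.10, 329 genes were higher and 372 lower, and with differences taken relative to the median gene, 211 and 331. With only the 85 wells low in Pdf, ITP and Trissin, 129 were higher and 385 lower of 5531 tested. Among the called genes of the naming rule, Yp1, a yolk protein gene, turned its direction with DESeq2 (log2 -1.75 with edgeR, 0.20 with DESeq2), and no other did under these scalings.

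The radish gene rad, known for its part in consolidated memory in flies, had 39.0 to 129.7 TP10K in CCHa1 wells (median 81.1), against 4.87 to 12.6 TP10K in other wells (median 7.96). The ranges did not overlap, and the log2 difference was 3.14 ± 0.11 (SE; edgeR, adjusted p = 5.03e-31). In single wells rad reached at least 50 TP10K in 156 of 203 CCHa1 wells and in 18 of 4392 other wells. Corin, a serine protease of the membrane, had 7.94 to 38.9 TP10K in CCHa1 wells (median 24.2) and 2.2 to 8.27 TP10K in other wells (median 3.51), 2.43 ± 0.12 on the log2 scale. CG4168 had 1.16 to 11.1 TP10K (median 4.67), against 0.311 to 0.765 TP10K in other wells, and again the ranges did not overlap. CG12715 and, named after its values were seen, CG15719 were higher as well, by 3.01 and 3.07 on the log2 scale. Both overlap rad and lie on its opposite strand (rad: X, 12988615 to 13079070, plus strand), and since the sources used here do not say whether strand was used in counting, their UMIs cannot be told apart from those of rad.

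CG15082 had 2.62 to 95.4 TP10K in CCHa1 wells (median 22.9) and 0.0154 to 2.47 TP10K in other wells (median 0.282), 6.55 ± 0.28 on the log2 scale (edgeR, adjusted p = 6.22e-27), and its wide range in CCHa1 wells went with the time of day (below). At least 10 TP10K of CG15082 was found in 140 of 203 CCHa1 wells and in 20 of 4392 other wells. Its neighbour CG15098, whose 3′ end lies 130 bases away on the opposite strand of 2R, had 0 to 16.8 TP10K in CCHa1 wells (median 4.01) and 0.132 to 0.622 TP10K in other wells. Over the 24 batches the level of CG15098 was 0 to 0.314 times that of CG15082 and moved with it (Pearson's r = 0.89, Spearman's rho = 0.90, a description over batches that share time points), so the UMIs of these neighbours cannot be told apart with certainty.

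Npc2b, a gene of the NPC2 family of lipid-binding proteins, stood out in the same way and lies next to CCHa1. It had 12.5 to 62.6 TP10K in CCHa1 wells (median 27.9) and 0.0881 to 2.95 TP10K in other wells (median 0.412). At least 10 TP10K of Npc2b was found in 188 of 203 CCHa1 wells and in 7 of 4392 other wells. In the annotation used here (dm6) the 3′ ends of Npc2b (3R, 14089517 to 14092425, plus strand) and CCHa1 are 78 bases apart and point at each other. Over the batches the level of Npc2b was 0.484 to 1.48 times that of CCHa1 (median 0.833), with Pearson's r = 0.73 and Spearman's rho = 0.81 over 24 batches. As Npc2b may share reads with the gene that chose the wells, no test of it is read here.

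Among transcription factors, a small set stood out as higher in CCHa1 wells, and 27 of 55 listed identity factors tested were lower. The paired forkhead genes slp1 and slp2 (sloppy paired, known for segmentation and for timing in neural stem cells) had 0.647 to 8.96 TP10K (slp1, median 3.61) and 0.771 to 6.27 TP10K (slp2, median 2.13) in CCHa1 wells. In other wells slp1 had 0.0360 to 0.218 TP10K and slp2 0.0269 to 0.662 TP10K, so neither gene overlapped between the classes, and the log2 differences were 4.98 ± 0.19 (slp1) and 4.32 ± 0.26 (slp2). The zinc finger gene erm (earmuff) had 0 to 2.59 TP10K in CCHa1 wells (median 1.12), against 0 to 0.0529 TP10K in other wells, 6.41 ± 0.33 on the log2 scale. With every well thinned to 6000 UMIs, erm was found in 34.0% of CCHa1 wells and 0.797% of other wells, and slp1 in 72.9% and 4.30%. The LIM-homeodomain gene ap (apterous) had a median of 1.5 TP10K in CCHa1 wells and 0.143 TP10K in other wells (3.24 ± 0.20), and zfh2 a median of 5.34 TP10K in CCHa1 wells and 1.36 TP10K in other wells (1.58 ± 0.14).

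In the list of identity transcription factors, ap and zfh2 were the 2 of 55 tested that were higher, and 27 were lower, with a median of -0.96 (log2) in the list. The lower ones include factors used as markers of other clock neurons: gl and ham of the posterior DN1 neurons had medians of 0.101 and 0.0626 TP10K in CCHa1 wells, against 0.936 and 0.410 TP10K in other wells. The gene hth, of a homeodomain factor, had 0.771 to 13.2 TP10K in CCHa1 wells (median 5.51) and 10.4 to 24.9 TP10K in other wells (median 18.3), and pros (prospero) 0.539 to 20.9 TP10K (median 4.91) and 9.19 to 31.9 TP10K (median 19.0), 1.72 and 1.99 lower on the log2 scale in CCHa1 wells. The genes pdm3, Lim1 and opa were lower by between 1.75 and 2.50. On the opposite strand pdm3 overlaps CG18449, also called lower, so their UMIs cannot be told apart with certainty. The genes toy and bi were lower than in all other wells (log2 -1.75 and -1.29), but against glutamatergic wells alone (other kept wells with at least 5 TP10K of VGlut that also passed the limits on Pdf, ITP and Trissin) their differences were -0.41 (toy, adjusted p = 0.118) and -0.60 (bi), and neither was called.

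Of 23 neuropeptide genes tested beside the rule genes, 2 were higher in CCHa1 wells and 17 lower, with a median of -1.78 (log2). The higher ones were Nplp1, a precursor of several peptides, and Dh44, a diuretic hormone known as an output signal of the clock. Nplp1 had 1.93 to 27.3 TP10K in CCHa1 wells (median 12.1) and 1.34 to 7.23 TP10K in other wells (median 3.18), 1.74 ± 0.12 on the log2 scale. Dh44, named after its values were seen, had 0.385 to 12.5 TP10K in CCHa1 wells (median 6.08) and 0.132 to 16.3 TP10K in other wells (median 1.4), 1.67 ± 0.17, and was higher in CCHa1 wells in 22 of 24 batches. After thinning, a UMI of Dh44 was found in 84.2% of CCHa1 wells and 30.7% of other wells. Dh44 overlaps Fst on the opposite strand by 1177 bases, and Fst was called higher too, so their UMIs cannot be told apart with certainty.

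The lower peptide genes include those that define other clock neurons. Dh31 had 0 to 4.99 TP10K in CCHa1 wells (median 1.09) and 3.01 to 15.6 TP10K in other wells (median 7.63), a log2 difference of -2.71 ± 0.16. CNMa, of posterior DN1 neurons, had medians of 2.74 TP10K in CCHa1 wells and 12.5 TP10K in other wells (-1.77 ± 0.15), and sNPF, short neuropeptide F, 1.05 and 3.82 TP10K (-2.0 ± 0.15). Proc and Mip were lower by 2.72 and 2.52 on the log2 scale and AstA by 1.78. NPF was lower than in all other wells (-2.60), but by 0.94 against glutamatergic wells, short of the 2-fold limit.

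AstC, allatostatin C, did not differ by 2-fold between the classes (log2 -0.74 ± 0.22) but was uneven among the CCHa1 wells. Over batches it had 3.33 to 103 TP10K in CCHa1 wells (median 12.1) and 6.47 to 34.9 TP10K in other wells (median 18.2). In single CCHa1 wells AstC lay between 0 and 308 TP10K (median 5.59), with 18 wells at 50 TP10K or more, in 11 batches, of which 9 wells were at 100 TP10K or more. These 18 wells had a median of 33.0 TP10K of CCHa1, 76.2 TP10K of rad and 25.3 TP10K of VGlut, against 32.5, 78.6 and 24.1 TP10K in the other 185 CCHa1 wells. By the same split slp1 had medians of 2.46 and 2.57 TP10K and Nplp1 12.2 and 8.57 TP10K. The split uses AstC itself and is a description only. AstC is a marker of several other dorsal clock neurons, and the part of RNA from a second cell was not tested.

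For transmitters, 1 of 17 genes of synthesis and transport was higher in CCHa1 wells (VGlut) and 11 were lower, with a median of -1.32 (log2). Against glutamatergic wells, the log2 difference of VGlut was -0.0598 (adjusted p = 0.699), and that reference was itself chosen by VGlut. Vmat, the vesicular monoamine transporter, had 0 to 18.5 TP10K in CCHa1 wells (median 4.63) and 1.38 to 80.1 TP10K in other wells (median 29.0), a log2 difference of -2.85 ± 0.20 that was much the same against glutamatergic wells (-2.80). Gad1, the enzyme of GABA synthesis, had medians of 0.555 TP10K in CCHa1 wells and 4.32 TP10K in other wells (-2.59 ± 0.19), and ChAT, the enzyme of acetylcholine synthesis, 3.54 and 6.51 TP10K (-1.32 ± 0.13). The transporters DAT (dopamine) and SerT (serotonin) were lower by 2.64 and 2.49 on the log2 scale, and Tdc2 and Tbh, enzymes of tyramine and octopamine synthesis, by 2.95 and 1.25. Gad1, ChAT, DAT and SerT lost the call against glutamatergic wells (-0.69, -0.67, -0.79 and -0.42), while Tdc2 and Tbh kept it (-3.40 and -1.33). Gad1 overlaps CG14989, also called lower, on the opposite strand, with the same doubt about strand.

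Peptide receptors differed in both directions: 7 of 32 tested were higher in CCHa1 wells and 12 lower (median -0.49). The calcitonin-type receptor gene hec (hector) had 0.606 to 4.50 TP10K in CCHa1 wells (median 2.21) and 0.101 to 1.06 TP10K in other wells (median 0.226), 2.93 ± 0.21 on the log2 scale, and was higher in CCHa1 wells in 24 of 24 batches. SPR, the receptor of sex peptide and of Mip peptides, had 0.327 to 2.78 TP10K (median 1.56) and 0.214 to 0.741 TP10K (median 0.351), 2.02 ± 0.15. ETHR and CrzR, receptors of ecdysis triggering hormone and corazonin, were higher by 2.73 ± 0.33 and 2.30 ± 0.29, at low levels (medians of 0.220 and 0.304 TP10K in CCHa1 wells). Pdfr, the receptor of the PDF peptide, was not called: it had 1.51 to 9.76 TP10K in CCHa1 wells (median 4.70) and 1.39 to 7.73 TP10K in other wells (median 4.47), log2 -0.04 ± 0.11. Dh31-R and sNPF-R were lower, both by 1.72 on the log2 scale, with medians of 0.105 and 0.154 TP10K in CCHa1 wells.

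Of 42 receptors of amines and fast transmitters, 2 were higher and 8 lower, against 2.15% and 6.8% of all genes tested. Both higher ones are receptors of octopamine or tyramine: CG18208 (an alpha2-type octopamine receptor) had 5.89 to 31.6 TP10K in CCHa1 wells (median 11.6) and 1.95 to 17.8 TP10K in other wells (median 4.67), 1.1 ± 0.13 on the log2 scale, and Oct-TyrR had medians of 1.06 TP10K in CCHa1 wells and 0.283 TP10K in other wells (1.86 ± 0.20). The gene mGluR, the metabotropic glutamate receptor, was lower, with medians of 0.239 TP10K in CCHa1 wells and 1.86 TP10K in other wells (-2.23 ± 0.21), as was the dopamine receptor Dop1R2 (-2.04 ± 0.25). In cAMP signalling, the adenylate cyclase Ac13E was the 1 gene of 26 that was higher (median 6.81 TP10K in CCHa1 wells and 1.57 TP10K in other wells, 2.02 ± 0.12), and 4 were lower. Of the lower ones, Ac78C (-0.47) and Pka-C3 (-0.15) lost the call against glutamatergic wells, while Ac76E (-1.32) and CG31183 (-1.21) kept it. Ac13E overlaps CR44354, also called higher, on the opposite strand, so their UMIs cannot be told apart with certainty.

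Cell surface genes were sharply divided within families. DIP-beta, DIP-epsilon and DIP-zeta were higher in CCHa1 wells and DIP-delta, DIP-theta, CG31814 and, named after its values were seen, DIP-gamma lower, of 9 DIP genes tested. DIP-epsilon had medians of 0.577 TP10K in CCHa1 wells and 0.137 TP10K in other wells (log2 1.89 ± 0.25), and DIP-delta 0.285 and 1.66 TP10K (-2.53 ± 0.19). For CG31814 the classes did not overlap, with 0 to 0.271 TP10K in CCHa1 wells and 0.339 to 1.24 TP10K in other wells. DIP proteins bind Dpr proteins, and of 21 dpr genes tested dpr2 and dpr3 were higher and 6 lower. The gene dpr3 had 1.01 to 3.39 TP10K in CCHa1 wells (median 2.33) and 0.317 to 1.12 TP10K in other wells (median 0.573), and dpr10 had medians of 0.0967 and 0.760 TP10K (log2 -2.75 ± 0.25). The opposite strand of dpr3 holds CG12674, also called higher, and their UMIs cannot be told apart with certainty.

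Among 21 beat and side genes, the 3 that were higher were beat-Va, beat-Vc and, named after its values were seen, beat-Vb, and 8 were lower. The gene beat-Vc had 0.327 to 5.89 TP10K in CCHa1 wells (median 1.78) and 0.0894 to 0.536 TP10K in other wells (median 0.286), 2.44 ± 0.18 on the log2 scale. The gene beat-VI did not overlap between the classes in the other direction, with 0 to 0.771 TP10K in CCHa1 wells and 0.959 to 2.01 TP10K in other wells. The genes beat-Ia, beat-Ib and beat-Ic were lower by between 2.10 and 2.68. On the opposite strand, beat-Vc overlaps CR44232, also called higher, and beat-Ib overlaps CG18063, also called lower, with the same doubt about strand. Of 48 other adhesion and guidance genes, 3 were higher and 10 lower, against 2.15% and 6.8% of all genes tested. Con (connectin) had medians of 0.554 TP10K in CCHa1 wells and 2.83 TP10K in other wells (-2.15 ± 0.17), and caps (capricious) 0.0515 and 0.480 TP10K (-2.94 ± 0.28).

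**Figure D2:**
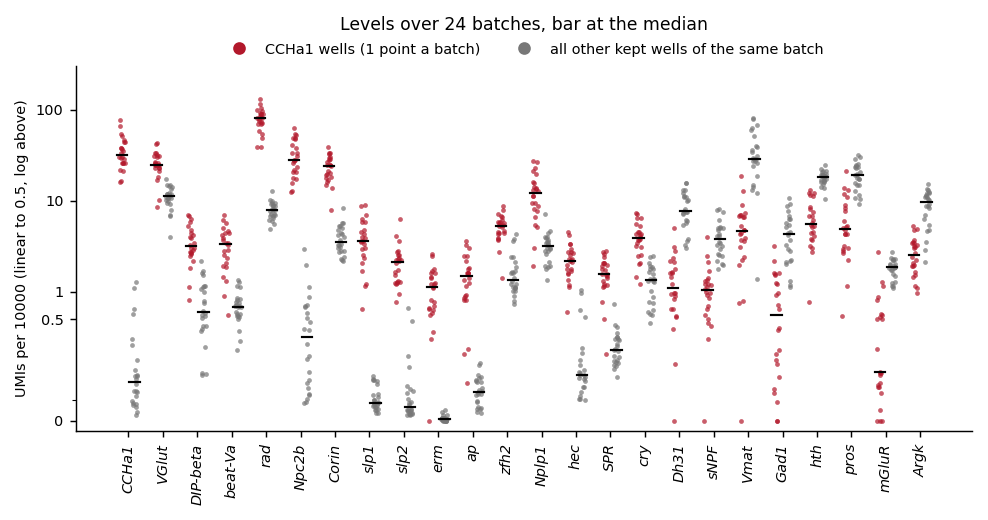
Levels of 24 genes in UMIs per 10000 (linear to 0.5, logarithmic above), 1 point for each of 24 batches, CCHa1 wells in red on the left of each pair and all other kept wells of the same batch in grey on the right, with a bar at the median. The points of rad, Npc2b, slp1 and slp2 do not overlap between the classes. CCHa1 chose the wells and is shown as a description.

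In the list of synaptic release genes 0 of 21 were higher and 1 lower, against 2.15% and 6.8% of all genes tested: cpx (complexin) had 5.07 to 33.5 TP10K in CCHa1 wells (median 17.0) and 9.41 to 50.8 TP10K in other wells (median 34.7), log2 -1.03 ± 0.10, and against glutamatergic wells it fell short of 2-fold (-0.89). Of 42 ion channels and transporters, Elk, which overlaps PPO1 (also called higher) on the opposite strand, was higher (1.01 ± 0.19) and Shab, eag and Ca-alpha1T lower. Against glutamatergic wells, Shab (-0.85) and eag (-0.93) fell short of 2-fold, while Ca-alpha1T kept the call (-1.32). Ca-alpha1T, the T-type calcium channel, had 0.448 to 7.49 TP10K in CCHa1 wells (median 3.14) and 3.67 to 10.2 TP10K in other wells (median 6.5). In peptide processing and secretion 0 of 23 genes were higher and 3 lower, among them dimm, a factor of peptidergic cells, with medians of 0 TP10K in CCHa1 wells and 0.161 TP10K in other wells (log2 -2.31 ± 0.40), not called against glutamatergic wells (-0.89, adjusted p = 0.224). Argk, arginine kinase, was lower by 1.85 ± 0.11, with medians of 2.55 TP10K in CCHa1 wells and 9.68 TP10K in other wells.

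Markers of cells outside the clock network were summed per batch. The summed levels of 10 photoreceptor genes lay between 0 and 0.385 TP10K over the batches of CCHa1 wells, those of 4 haemocyte genes between 0 and 0.402 TP10K, and those of 4 muscle genes between 0 and 0.854 TP10K. The glial genes summed to 0 to 11.9 TP10K in CCHa1 wells (median 0.645) and 0.221 to 11 TP10K in other wells (median 0.599), and the glial factor repo had a median of 0 TP10K in CCHa1 wells. None of the tested members of these 4 lists was called in either direction. Fat body genes summed to 0.909 to 9.41 TP10K in CCHa1 wells and 1.15 to 14.7 TP10K in other wells, and Kenyon cell genes to 15 to 40.8 TP10K and 15.1 to 46.1 TP10K. Of 4 fat body genes tested 1 was lower and of 4 Kenyon cell genes 3 were lower in CCHa1 wells. Among markers of other clock neurons, 7 of 7 lateral neuron genes, 6 of 8 posterior DN1 genes and 1 of 2 genes of the lateral posterior neurons were lower, and Rh7 of the posterior DN1 list was higher. The study also found Rh7 mRNA in DN1a neurons, so Rh7 does not mark posterior DN1 neurons alone. The other wells included the lateral neurons. Against glutamatergic wells, NPF (log2 -0.94), toy (-0.41) and bi (-0.60) of the lateral list lost the call, and opa gave no value. The genes sNPF (-1.34) and hth (-1.15), the 6 posterior DN1 genes and AstA kept it. Of the fat body and Kenyon cell genes called, Yp1 (-1.42) and prt (-0.06) lost the call, while ey (-1.12) and Dop1R2 (-2.72) kept it. Of 22 activity and stress genes 0 were higher and 2 lower. Of 15 genes known to cycle widely or act in clock output 0 were higher and 3 lower. Over all genes tested, 2.15% were higher and 6.8% lower.

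Of 8 core clock genes, 3 were higher in CCHa1 wells and 0 lower, with a median of 0.66 (log2). The blue-light receptor gene cry had 1.21 to 7.28 TP10K in CCHa1 wells (median 3.91) and 0.480 to 2.48 TP10K in other wells (median 1.35), 1.48 ± 0.11 on the log2 scale (edgeR, adjusted p = 1.93e-16), and was higher in 24 of 24 batches. Clk had a median of 2.78 TP10K in CCHa1 wells and 1.27 TP10K in other wells (1.28 ± 0.17), and vri 6.34 and 2.64 TP10K (1.13 ± 0.17). Pdp1, the most abundant of the list, had 45.7 to 146 TP10K in CCHa1 wells (median 93.5) and 19.8 to 102 TP10K in other wells (median 47.5), higher in 24 of 24 batches but by less than 2-fold (0.78 ± 0.08). The gene tim differed by 0.54 ± 0.12, per by 0.08 ± 0.16, cwo by 0.02 ± 0.12 and cyc by -0.07 ± 0.30, and none of these reached 2-fold. Rh7, a rhodopsin, was the other gene of the light input list that was higher, with medians of 2.02 TP10K in CCHa1 wells and 0.761 TP10K in other wells (1.35 ± 0.18). None of 16 clock kinases, phosphatases and degradation genes was called, with a median of -0.16.

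Rhythms within CCHa1 wells were tested over DD and LD together with a cosine and a sine of 24 h in edgeR's quasi-likelihood test, with light condition as a covariate. A cycler had an adjusted p under 0.05, time-point means with a maximum of at least 1.5 times the minimum, and a maximum of at least 0.8 TP10K. Of 2075 genes tested, 45 were called (2.17%). Amplitudes are differences from trough to peak of the fitted curve on the log2 scale, and means below are over the 3 to 5 batches of a time point. The fit peaked between 18 and 2 h for 19 of the 45, between 2 and 12 h for 16 and between 12 and 18 h for 10. The count ranged between 29 and 53 when 1 batch at a time was left out, 29 being without CT06a, and was 2 when only the 85 wells low in Pdf, ITP and Trissin were used. Some batches of different time points share the number in their titles. With that number as a block, 26 genes cycled, 12 of the 45 among them, and 16 of 26 named cyclers lost the call, among them Pdp1, Ten-m, Dscam4, NaCP60E, CrebA, Hsc70-3, Argk and Eip93F.

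Of 7 core clock genes tested, 2 were called. The gene tim had means of 4.99, 5.95, 12.4, 20.8, 21.4 and 10.6 TP10K at 2, 6, 10, 14, 18 and 22 h, with an amplitude of 2.28 and a fitted peak at 15.5 h (edgeR, adjusted p = 0.00197), and its mean at 18 h included batch ZT18b with 37.2 TP10K. Pdp1 had means of 67.8, 55.7, 102, 109, 111 and 124 TP10K, with an amplitude of 1.09 and a peak at 16.9 h (adjusted p = 0.0168). Both were low in the first hours of the day and high in the night. The genes vri (amplitude 1.62, adjusted p = 0.0659), Clk (1.5, 0.104), cry (1.13, 0.117), per (2.44, 0.157) and cwo (1.14, 0.380) missed the threshold, and cyc was too low to test. The gene per had a mean of 5.41 TP10K at 14 h that rested on batch ZT14a with 12.9 TP10K, against at most 3.47 TP10K in any other batch.

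**Figure D3:**
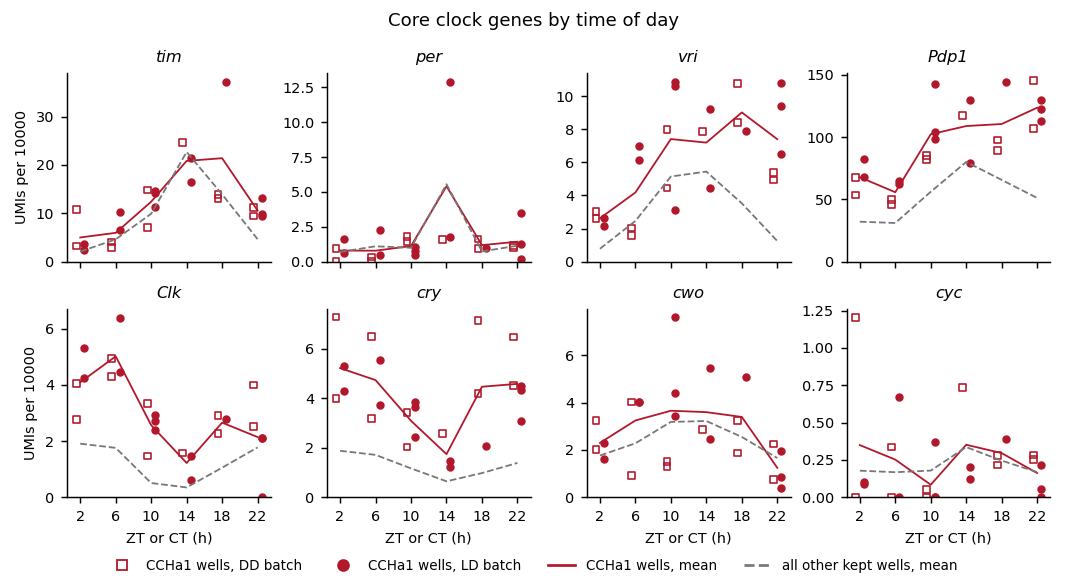
Levels of the 8 core clock genes in UMIs per 10000 against ZT or CT in hours. Open squares are CCHa1 wells of DD batches, filled circles those of LD batches, the red line is their mean and the dashed grey line the mean of other kept wells. Tim rises into the night in both classes, while vri stays at 7.41 TP10K at 22 h in CCHa1 wells, against 1.25 TP10K in other wells.

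The cycler CG15082 had means of 24.9, 72.9, 50.3, 18.3, 14.8 and 9.66 TP10K at the 6 time points, with an amplitude of 3.08 and a peak at 7.76 h (edgeR, adjusted p = 1.1e-05). The batches at 6 h (52.6 to 95.4 TP10K) lay above all those at 18 and 22 h (2.62 to 21.6 TP10K). Its neighbour CG15098 had an amplitude of 2.99 and a peak at 6.94 h. CG17777 had means of 24.4, 12.0, 2.95, 3.33, 18.7 and 18 TP10K, with an amplitude of 2.99 and a peak at 23.6 h (adjusted p = 1.95e-05), and its other-well means followed the same course at a lower level. CG15082, CG15098 and CG17777 were also higher in CCHa1 wells than in other wells.

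Of the cell surface lists, 2 of 14 dpr genes, 1 of 12 beat and side genes and 4 of 34 other adhesion and guidance genes tested were called, against 2.17% of all genes tested. The gene dpr9 had means of 8.62, 4.22, 3.48, 4.53, 9.26 and 12.3 TP10K, with an amplitude of 1.81 and a peak at 21.7 h (adjusted p = 1.1e-05). The gene dpr11 had means of 0.521, 0.687, 1.51, 2.38, 4.79 and 1.43 TP10K, with an amplitude of 2.93 and a peak at 16.0 h. Ten-m, a teneurin that matches synaptic partners, had means of 14.6, 7.56, 4.50, 3.28, 6.84 and 9.67 TP10K, with an amplitude of 1.82 and a peak at 1.05 h. CG12484, a gene of the side family (side-VIII), had means of 1.55, 4.16, 2.64, 0.845, 0.779 and 1.27 TP10K and peaked at 6.28 h. Dscam4 (amplitude 1.27, 20.6 h) and, chosen after its values were seen, tutl (1.13, 19.3 h), both of the immunoglobulin superfamily, also peaked in the night.

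Other cyclers came from several kinds of genes. The small heat shock gene Hsp23 had means of 12.0, 6.36, 2.82, 3.85, 4.24 and 7.87 TP10K and peaked at 0.888 h. The sodium channel gene NaCP60E peaked at 21.3 h with an amplitude of 1.5, and the gene of the RNA-binding protein bru-3 at 21.8 h with 1.03. CrebA, a factor of secretory capacity, and Hsc70-3, the chaperone BiP of the endoplasmic reticulum, were the 2 cyclers of the secretory list and peaked at 5.41 and 8.57 h, but kept the call in only 17 (CrebA) and 15 (Hsc70-3) of 24 fits with 1 batch left out. Argk had means of 4.23, 3.72, 1.93, 1.25, 2.33 and 2.50 TP10K and peaked at 2.78 h. The transcription factor genes Eip93F and noc peaked at 4.04 and 20.8 h, and bru-3 and noc were chosen after their values were seen. CCHa1 itself had means of 41.1, 34.0, 21.1, 29.9, 46.4 and 45 TP10K, which is a description, since its level chose the wells.

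**Figure D4:**
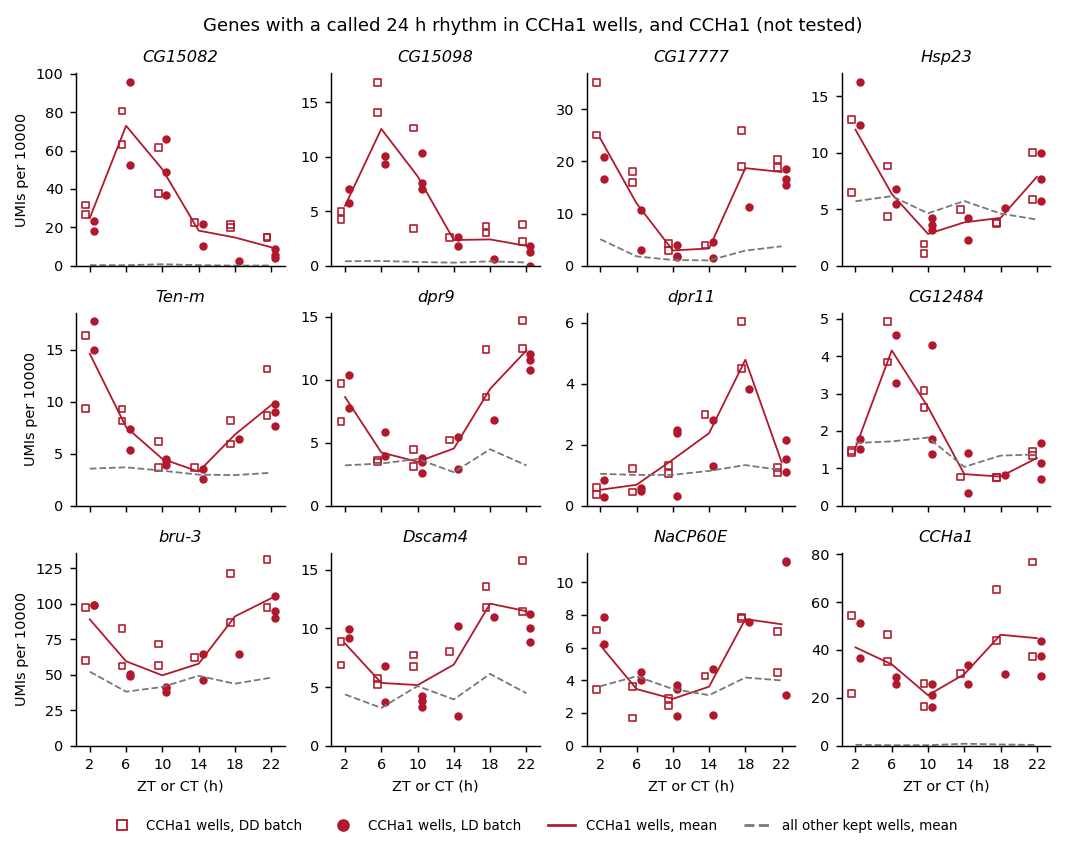
Levels in UMIs per 10000 against ZT or CT in hours for 11 genes with a called 24 h rhythm in CCHa1 wells, and CCHa1 (chosen by the rule, not tested). Open squares are DD batches, filled circles LD batches, the red line is the mean of CCHa1 wells and the dashed grey line the mean of other kept wells. CG15082 and CG15098 peak at 6 h, dpr11 at 18 h, and Ten-m, Hsp23 and CG17777 at 2 h.

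The time course of a gene in CCHa1 wells was set against that in all other wells of the same batches by testing the interaction of class with the 24 h terms. Of 7709 genes, 21 were called (0.272%), 9 of which also cycled in CCHa1 wells by the test above. The vrille gene vri had means of 2.62, 4.18, 7.41, 7.20, 9.02 and 7.41 TP10K in CCHa1 wells, against 0.778, 2.46, 5.15, 5.45, 3.53 and 1.25 TP10K in other wells. The difference between the classes was thus small at 10 and 14 h and wide at 18, 22 and 2 h, with a peak at 23.0 h and an amplitude of 2.05 (adjusted p = 0.00045). Clk, by contrast, had means of 4.09, 5.02, 2.56, 1.22, 2.66 and 2.14 TP10K in CCHa1 wells and 1.91, 1.76, 0.505, 0.348, 1.05 and 1.77 TP10K in other wells. Its difference peaked at 10.8 h with an amplitude of 1.83 (adjusted p = 0.0198), and at 22 h the class means were close. For tim the interaction missed the threshold (amplitude 1.18, adjusted p = 0.0796).

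The genes dpr9, Ten-m, Hsp23, dpr11, Act5C and CG15098 were also among the 21 genes, and kept the call with each of the 24 batches left out in turn. CG12484 was called as well, but in only 12 of those 24 fits, and Clk in 22. For dpr9 and Ten-m, the other-well means varied less than those of CCHa1 wells, with the highest dpr9 mean at 18 h. They were 3.20, 3.34, 3.71, 2.66, 4.47 and 3.19 TP10K for dpr9, and 3.56, 3.69, 3.36, 2.99, 2.94 and 3.17 TP10K for Ten-m. The other-well means of Clk varied more widely with the time of day (above). The interaction had amplitudes of 1.75 for dpr9, 1.60 for Ten-m, 1.73 for Hsp23 and 2.67 for dpr11. Other wells hold many cell types, so these means are of a mixture. The count of 21 ranged between 12 (without CT18b) and 41 (without ZT22b), with 13 without ZT06b, and was 5 with the 85 wells low in Pdf, ITP and Trissin.

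With each light condition fitted by its own curve, 2 of 2672 genes cycled in DD (0.0749%) and 10 in LD (0.374%). The DD genes were dpr9, with an amplitude of 1.97 and a peak at 20.9 h (adjusted p = 0.00891), and CG15082, with 2.05 and 7.81 h (adjusted p = 0.0377). In LD the curves of these genes had amplitudes of 1.68 with a peak at 22.6 h for dpr9 and 4.26 with a peak at 7.49 h for CG15082. For tim, the curve had an amplitude of 1.91 and a peak at 16.0 h in DD (adjusted p = 0.649), and 2.68 and 15.2 h in LD (adjusted p = 0.0396). With at least 3 CCHa1 wells a batch, LD at 18 h was ZT18b alone and DD at 14 h was CT14a alone. ZT18b had the highest tim (37.2 TP10K) and the lowest CG15082 (2.62 TP10K) of all batches used, so both LD amplitudes rest in part on 1 batch. CG15082 kept its LD call with each of the 24 batches left out in turn. CG17777 had 2.95 and 23.6 h in DD (adjusted p = 0.133), and 3.02 and 23.6 h in LD (adjusted p = 0.00236). The difference between the DD and LD curves was tested directly, and 0 of 2672 genes passed with edgeR or with DESeq2 (133 had an unadjusted p under 0.05 with edgeR). A gene called in LD and not in DD is therefore not shown to differ between them. Leaving out CT10c or CT22a left 0 cyclers in DD, and leaving out ZT02b, ZT06b or ZT10b left 5 in LD. With the title number as a block, 0 genes cycled in DD and 27 of 4110 tested in LD, 6 of the 10 among them. With only the 85 wells low in Pdf, ITP and Trissin, 0 genes cycled in DD and 1 in LD.

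The level in DD was set against that in LD in CCHa1 wells, with time point as a factor. Of 2672 genes, 5 were higher in DD (0.187%) and 21 lower (0.786%). Of these 26, 8 were ribosomal or mitochondrial RNA entries, such as mt:srRNA, with 3.81 to 11.7 TP10K in DD batches (median 8.10) and 17.6 to 75.2 TP10K in LD batches (median 28.5). The summed share of ribosomal RNA entries was 3.24% to 8.30% of the UMIs of CCHa1 wells in DD batches and 5.75% to 24.5% in LD batches, with medians of 5.48% and 14.1%. In other wells the medians were 7.10% in DD and 15.8% in LD. With these entries left out, a setting added after the data were seen, 1 gene was higher in DD and 8 lower, all of them among the 26. Of the named genes other than these entries, 6 kept the call in that setting and 5 lost it.

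Apart from the ribosomal entries, Hsromega, a stress-inducible noncoding RNA, had 8.89 to 44.5 TP10K in DD (median 17.0) and 14.2 to 69.6 TP10K in LD (median 53.0), a log2 difference of -1.46 ± 0.24 (edgeR, adjusted p = 0.00132). Dop2R, the D2-type dopamine receptor, had 1.94 to 10.3 TP10K in DD (median 5.97) and 5.23 to 14.7 TP10K in LD (median 10.7), -1.0 ± 0.21. The gene sr (stripe), an activity-responsive transcription factor, had medians of 0.469 TP10K in DD and 1.22 TP10K in LD (-1.56 ± 0.34), and stv (starvin), a co-chaperone, 0.607 and 1.68 TP10K (-1.60 ± 0.33). GILT1, a gene of the thiol reductase family, was higher in DD, with 0.810 to 3.64 TP10K in DD (median 1.94) and 0 to 0.825 TP10K in LD (median 0.552), 1.72 ± 0.32. GILT1, Hsromega and Dop2R were called with each of the 24 batches left out in turn, stv was lost without 1 batch and sr without 3. Ant2, also higher in DD (medians of 21.3 and 10.1 TP10K, 0.58 ± 0.13), was called in only 5 of the 24. With the 85 wells low in Pdf, ITP and Trissin, 0 genes were higher and 1 lower. Left out singly, CT22b, ZT02b and ZT18b each left 16 genes called, ZT06b 17 and ZT22b 41.

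**Figure D5:**
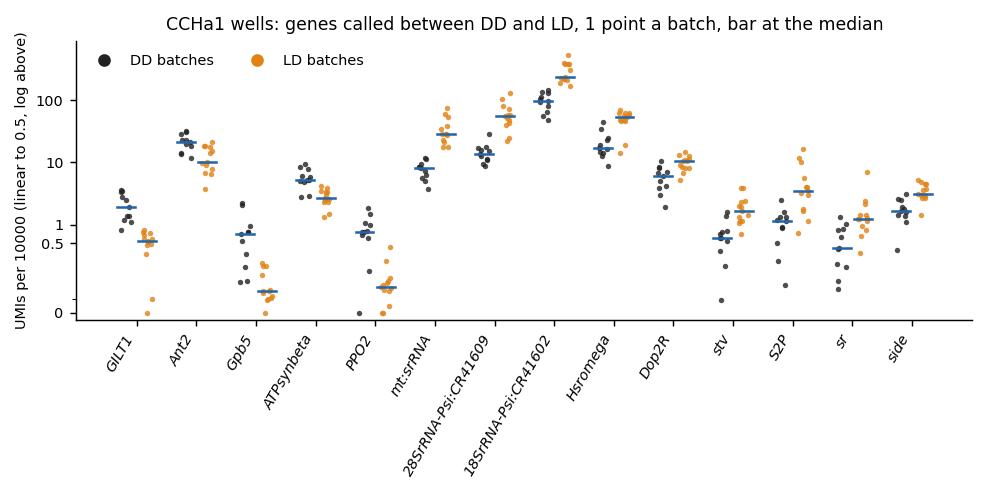
Levels of 14 genes and RNA entries called between DD and LD in CCHa1 wells, in UMIs per 10000 (linear to 0.5, logarithmic above), 1 point for each batch, DD in black on the left of each pair and LD in orange on the right, with a bar at the median. GILT1 lies at 0.810 TP10K or more in DD batches and at 0.825 TP10K or less in LD batches, and Hsromega has medians of 17.0 TP10K in DD and 53.0 TP10K in LD. The 11 DD and 13 LD batches share no batch number. With ribosomal and mitochondrial entries left out, 6 of the other genes kept the call and 5 lost it.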

How the data were processed

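The deposited files hold counts: UMIs of annotated exons for each gene and well of 84 CEL-Seq2 libraries (48 DD, 36 LD). Per the labels and the study's methods, the authors demultiplexed reads with bcl2fastq 2.20 and counted UMIs with zUMIs and STAR against dm6. The annotation release and the use of strand in counting are not given in the sources used here. No single count exceeded 4096. Spike-ins (2.14% of the UMIs of kept wells) and EGFP (0.213%) were dropped before wells were selected and scaled. The members and the gene lists were chosen with earlier results of these data known.

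UMIs were summed per batch and class for batches with at least 3 CCHa1 wells, which held 25953 to 565111 UMIs. R 4.3.3 and edgeR 4.0.16 (TMM scaling, its filter on low counts, quasi-likelihood test, Benjamini-Hochberg adjustment over all genes tested) gave all tests across genes, checked on simulated data. The comparison with other wells had batch as a factor, the rhythm tests a 24 h cosine and sine with light condition, and the light comparison time point as a factor. DESeq2 1.42.0, other limits on wells, no filter, library size scaling, a replicate block and leaving out each batch were alternatives. Levels are UMIs per 10000. Exact binomial intervals cover counting error only.

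Named were the genes of the rule and the markers, the core clock genes, in every other list up to 6 called members with the smallest adjusted p and up to 4 with the highest level, and up to 12 called genes with the smallest adjusted p in each test and direction. Of 547 genes in 30 lists, 18 had no matching entry and were not analysed here. Gene positions and names came from Ensembl and RefSeq annotation of the same build, and no sequences were used.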

Additional observations from a re-analysis of the deposited data

Results flagged for a closer look

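The 24 h course of 21 genes differed between CCHa1 wells and all other kept wells by the interaction of class and time in edgeR's quasi-likelihood test. The values are differences from trough to peak, on the log2 scale, of the fitted difference between the classes. Among genes described above they were 2.69 for CG15098, 1.75 for dpr9, 1.73 for Hsp23, 2.05 for vri, 2.67 for dpr11, 1.60 for Ten-m, 1.3 for Act5C, 1.83 for Clk, 1.70 for CG12484 and 3.26 for Tdc2. The gene jeb, of a ligand of the receptor Alk, had 1.81. With 1 batch left out, CG12484 was called in 12 of 24 fits, jeb in 10 and Tdc2 in 7. Less studied genes had 2.52 (CR44320), 1.51 (CG44247), 2.26 (CG13594), 1.55 (CG4577), 1.51 (CG6123) and 2.30 (CG11030). The fitted values of 8.56 for CR45789, 13.19 for CG15864, 7.15 for CG6204 and 5.77 for CG13679 are set by the fit and measure no amplitude, since CCHa1 wells had no UMI of the gene at 3, 3, 3 and 1 of the 6 time points. CG15864 had 1, 7 and 1 UMIs at 2, 6 and 10 h in all. Of the 21 genes, 5 had a median under 0.2 TP10K in CCHa1 wells.

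Outside the limits on genes, UMIs and entropy, 47 wells held at least 3 CCHa1 UMIs and at least 10 TP10K of CCHa1. They entered no comparison. Within the 12 groups of libraries of a light condition and time point, no library stood apart in its share of CCHa1 wells by Dixon's test, which flags about 1 in 20 groups by chance.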

How the results depend on the processing

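The DD share of CCHa1 wells was lower under every limit tried, but with at least 20 TP10K of CCHa1 the difference was -0.997 percentage points and missed the threshold. Against other wells, 1696 genes passed with no threshold on the fold, and leaving out 1 batch gave 609 to 784. VGlut turned to -0.0598 against glutamatergic wells, a reference chosen by VGlut itself, and Yp1 turned to 0.20 with DESeq2. The rhythm count over both conditions was 29 with at least 20 TP10K of CCHa1, 2 in wells low in Pdf, ITP and Trissin, 145 with no filter, 114 with DESeq2, 7 with at least 6 wells a batch, 20 with time point as a factor and 29 to 53 with 1 batch left out. In LD these settings gave 4, 1, 248, 80 and 3, at least 1 well a batch gave 17, and leaving out 1 batch 5 to 13. In DD the count was 1 with at least 5 TP10K or with library size alone, 69 with no filter, 12 with DESeq2, 6 with at least 1 well a batch, 0 to 3 with 1 batch left out, and 0 with at least 20 TP10K, in the wells low in the 3 peptides, with at least 6 wells, with time as a factor or with DD alone. The DD and LD curves differed for 266 genes with no filter and for 0 with 1 batch left out. Between DD and LD, 9 genes were called with at least 20 TP10K, 1 in wells low in the 3 peptides, 55 with no filter, 77 with DESeq2, 12 with at least 6 wells, 9 without ribosomal and mitochondrial entries and 16 to 41 with 1 batch left out. For the course against other wells the counts were 33 with at least 5 TP10K, 13 with at least 20, 5 in wells low in the 3 peptides, 37 with library size alone, 80 with no filter, 71 with DESeq2, 55 against glutamatergic wells, 2 in DD alone and 12 to 41 with 1 batch left out. The cause of these moves was not tested, beyond fewer wells or batches where a limit was raised.

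With the replicate block, 26 genes cycled over both conditions (12 of the 45 among them), 27 in LD, 0 in DD, and 2 differed between the DD and LD curves. Batches of the same number deviated together, with a correlation over 0.1, in 1 of 3 pairs in DD and 4 of 10 in LD. For pairs of other numbers these counts were 7 of 37 and 13 of 47. Of the batches, 1 of 6 in DD and 5 of 9 in LD correlated best with a batch of their own number. The main rhythm tests treated batches of a shared number as separate, which these few pairs, those in LD above all, cannot justify. No paired analysis was possible because DD and LD shared no number for the difference in level between them. Few CCHa1 wells a batch limit what low genes can show.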

Other observations

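Fat body genes summed to a median of 2.67 TP10K in CCHa1 wells and 2.59 TP10K in other wells, and Kenyon cell genes to 21.4 and 25.9 TP10K. A UMI of the glial gene repo was found in 5.91% of CCHa1 wells and 2.62% of other wells, at a batch median of 0 TP10K in CCHa1 wells.

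Npc2b, the neighbour of CCHa1, had means of 34.2, 40.1, 18.1, 20.3, 45 and 35.1 TP10K at 2, 6, 10, 14, 18 and 22 h in CCHa1 wells, against 41.1, 34.0, 21.1, 29.9, 46.4 and 45 TP10K of CCHa1. Both means were lowest at 10 h and highest at 18 h. Since CCHa1 chose the wells, no test was made.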
